A study of Mus musculus with 6 samples.

Results

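The VEGF ligands *Vegfa*, *Vegfb*, *Vegfc* and *Pgf*, the VEGF receptors *Flt1*, *Kdr* and *Flt4*, and *Prox1*, the transcription factor that sets lymphatic endothelial identity, were examined in RNA-Seq counts of the mouse cardiac outflow tract (OFT) at E13.5. These 8 genes were taken by symbol from the 28777 genes listed in the count table, and all 8 passed the filter that left 28157 genes for testing. The 6 bulk libraries comprise 3 labelled mutant, from embryos heterozygous for a *Notch1* null allele and lacking *Nos3* (Notch1+/-; Nos3-/-), and 3 labelled wildtype, from littermates carrying neither allele. Both groups were kept on a C57/BL6J background, both mutations are germline knockouts present in every cell, and each library pools the OFTs of 3 embryos. The pools are therefore the replicates, and the comparison asks whether the VEGF system of the OFT differs between the labels.

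VEGF ligands are secreted dimers that bind receptor tyrosine kinases on endothelial cells. *Vegfa* signals mainly through VEGFR2, the product of *Kdr*, while VEGFR1, the product of *Flt1*, binds *Vegfa*, *Vegfb* and *Pgf* tightly and in its soluble form acts as a decoy. *Vegfc* activates VEGFR3, the product of *Flt4*, and drives the growth of lymphatic vessels. In the developing heart the myocardium is a source of *Vegfa*, whose dose affects the endocardial cushions, the precursors of the semilunar valves. *Nos3*, the endothelial nitric oxide synthase, lies downstream of VEGFR2, and Notch signaling restrains the endothelial response to *Vegfa*.

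The 250 bases upstream of the RefSeq start (mm10, 5′ to 3′ on the strand of the gene) are shown for the ligand with the highest and the ligand with the lowest log2 fold change and for the main receptor of *Vegfa*. Capitals mark matches, which on the opposite strand read as the reverse complement, to the GC box GGGCGG, to the core of the hypoxia response element (ACGTG or GCGTG) and to GTGGGAA, the core bound by RBPJ, the DNA-binding partner of Notch.
Vegfa: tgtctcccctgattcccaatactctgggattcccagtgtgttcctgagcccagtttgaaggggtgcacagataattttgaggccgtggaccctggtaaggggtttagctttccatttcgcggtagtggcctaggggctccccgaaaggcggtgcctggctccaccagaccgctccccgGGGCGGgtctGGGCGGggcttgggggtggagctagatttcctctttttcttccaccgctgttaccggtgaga
Vegfb: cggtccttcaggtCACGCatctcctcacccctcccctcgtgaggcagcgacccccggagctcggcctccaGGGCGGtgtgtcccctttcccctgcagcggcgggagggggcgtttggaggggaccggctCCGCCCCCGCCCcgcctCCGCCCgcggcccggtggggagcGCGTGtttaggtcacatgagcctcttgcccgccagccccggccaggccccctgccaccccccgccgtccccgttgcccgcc
Kdr: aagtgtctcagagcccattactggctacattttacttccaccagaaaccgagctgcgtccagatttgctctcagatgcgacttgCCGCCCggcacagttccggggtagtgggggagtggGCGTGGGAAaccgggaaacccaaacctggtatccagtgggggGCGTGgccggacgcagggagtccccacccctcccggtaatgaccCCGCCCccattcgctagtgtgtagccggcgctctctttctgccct
The stretch before *Vegfa* is chr17:46032378-46032627, that before *Vegfb* is chr19:6987652-6987901 and that before *Kdr* is chr5:75978456-75978705, all 3 on the minus strand. The *Vegfa* stretch held 2 GC boxes and 0 matches to the hypoxia core, and the *Vegfb* stretch held 4 GC boxes and 2 hypoxia cores. The *Kdr* stretch held 2 GC boxes, 2 hypoxia cores and 1 RBPJ core, which overlaps one of the hypoxia cores. Among the 8 genes *Kdr* was the only one with an RBPJ core in this window. Each of the 8 had at least 2 GC boxes, and 0 had CCGGAAG, a core bound by ETS factors. Of 32851 RefSeq promoter windows of the same length, 32.7% held a GC box, 38.6% a hypoxia core, 5.42% an RBPJ core and 6.91% an ETS core. A match describes the letters only, and the counts of RNA do not test binding. Sequence outside these 250 bases was not searched, so 0 matches here does not mean that a gene lacks the element.

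The libraries held between 34729103 and 44387490 counts, and no member fell below 278 counts in any library. Counting error weighs most on *Pgf*, the gene with those 278 counts. The targeted genes were set against the labels. Values are CPM, counts scaled by TMM library size. *Nos3* averaged 21.5 ± 0.949 CPM over the mutant label and 42.4 ± 9.18 CPM over the wildtype label (SD, n = 3 each). Its RNA was thus lower but not absent under the Nos3-/- label. The log2 fold change of *Nos3* was −0.98, not called by edgeR (edgeR adjusted p = 0.128) but called by DESeq2 (DESeq2 adjusted p = 9.14e-06). *Notch1* was higher under the mutant label, 152 ± 10.9 against 82.0 ± 7.09 CPM (SD, n = 3 each). A lower level would be seen under the Notch1+/- label if RNA followed the number of intact alleles. The counts do not separate RNA of the null allele from that of the intact one. Whether the labels match the genotypes was not tested, so libraries are named here by their labels. EdgeR called this *Notch1* difference (log2 fold change 0.89, edgeR adjusted p = 0.0313). Of the 61 markers in 9 lists of cell types, 0 stayed at or under 3 counts in every library. That check is weak, since the 6 liver markers passed it too. The summed levels below show myocardial, endothelial and mesenchymal transcripts. Smooth muscle markers summed to 1336.2 to 1562.5 CPM under the mutant and 1518.5 to 2001 CPM under the wildtype label. Their mean on the log2 scale went the other way, higher by 0.22 under the mutant label (3 of 5 genes higher, two-sided exact permutation test, p = 0.2). The mean of 10 myocardial markers was lower by 0.49 on the log2 scale under the mutant label (two-sided exact permutation test, p = 0.3). Of these 10 genes, 0 were higher under the mutant label. Their sums, 19069 to 26657 CPM against 27176 to 37805 CPM, did not overlap. The log2 means behind that p-value did, with mutant replicate 3 (0.18 above the mean of all libraries) above wildtype replicates 1 and 2 (0.04 and 0.06). The mean of 10 endothelial markers differed by −0.07 (two-sided exact permutation test, p = 0.8), with sums of 836 to 913 against 751 to 1038 CPM. Mesenchymal markers were higher by 0.68 (6 of 6 genes, sums of 7141 to 9119 against 3965 to 7653 CPM) and neuronal and glial markers by 0.42 (6 of 6 genes), with p = 0.2 and 0.1 in the same exact permutation test. Blood markers were lower by 0.51 (0 of 8 genes higher, exact permutation p = 0.4), with sums of 11788 and 10105 CPM in wildtype replicates 2 and 3 and 5303 to 6230 CPM in the other 4 libraries. In all lists 0 markers were called by edgeR. The part of these shifts in the VEGF results was not tested, other than by the covariates named. In bulk tissue, fewer cells of a type and less RNA per cell cannot be told apart.

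*Vegfa* was the member that stood out, being higher in each library labelled mutant than in any labelled wildtype, and no member passed the threshold of the main test. Of the 8 genes, 4 had higher and 4 lower means under the mutant label, with a median log2 fold change of 0.016 beside 0.011 for all genes tested. Adjusted p-values are Benjamini-Hochberg values over all genes, from the quasi-likelihood fit of edgeR unless another tool is named, and a gene was called at 0.05 or below. In edgeR 0 of the 8 were called, where 0.0213% of all genes were. An unadjusted p under 0.05 was found for 2 of the 8 and 16.1% of all genes, *Vegfa* being higher (as were 8.23% of all genes) and *Vegfb* lower (as were 7.83%). DESeq2's Wald test called 1 of the 8, *Vegfa*, against 4.21% of the genes given an adjusted p. *Vegfa* was also the 1 member of 8 whose groups did not overlap, a pattern found in 19.6% of all genes.

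**Figure D1:**
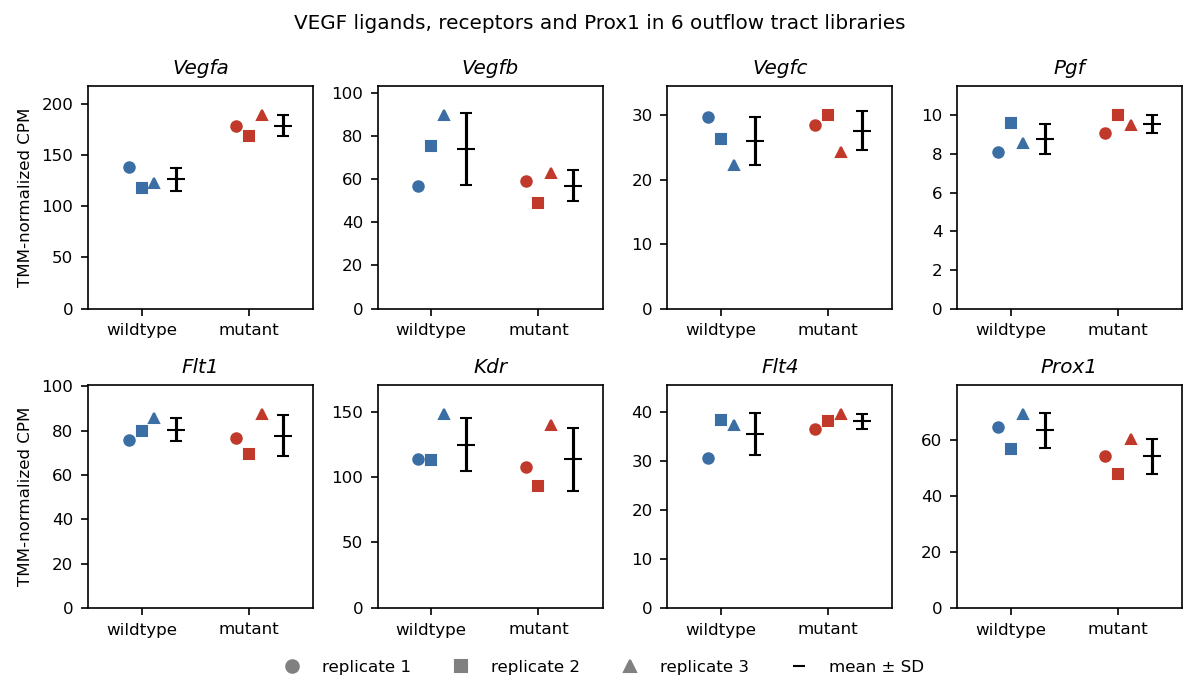
TMM-normalized CPM of each gene (y axis, from 0) in the 3 libraries labelled wildtype (blue) and the 3 labelled mutant (red), with the replicate number as the marker and mean ± SD in black. *Vegfa* lies between 169 and 189 CPM under the mutant label and between 117 and 139 CPM under the wildtype label, while the groups of the other 7 genes overlap.

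Among the ligands, *Vegfa* (ENSMUSG00000023951, chromosome 17, 46016993 to 46032369) is the principal angiogenic factor. It had 178, 169 and 189 CPM in replicates 1, 2 and 3 labelled mutant and 139, 117 and 122 CPM with the wildtype label. The lowest mutant value was above the highest wildtype value. The means were 178 ± 10.02 and 126 ± 11.1 CPM (SD, n = 3), a ratio of 1.42. The log2 fold change was 0.50 (SE 0.10, 95% interval 0.28 to 0.73), and the edgeR adjusted p = 0.153. Its unadjusted p of 0.000489 in that fit was reached by 0.313% of the genes tested. The two-sided exact permutation test gave p = 0.1, the smallest that 3 libraries against 3 allow.

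The call of *Vegfa* turned on the fit. It was called by DESeq2 (0.50, adjusted p = 0.00202) and by edgeR when the replicate number of the titles was a block (0.50, edgeR adjusted p = 0.00844). Without wildtype replicate 1, the wildtype library with the most *Vegfa*, the log2 fold change was 0.58 and the gene was called (edgeR adjusted p = 0.0154). Under that setting 9.45% of all genes were called, and 5.6% with the block. It was also called with the block joined to offsets for GC content and length (8.02% of all genes) and with the endothelial marker mean as a covariate (3.82%). When the block used the replicate numbers of the descriptions, which exchange wildtype replicates 2 and 3, the log2 fold change was 0.50 (edgeR adjusted p = 0.108), and 0.295% of all genes were called. The other fits called 0 members and between 0.00364% and 0.0249% of all genes. Over 17 alternatives *Vegfa* stayed between 0.45 and 0.60 on the log2 scale, with adjusted p-values of edgeR, limma and DESeq2 from 0.00200 to 0.583.

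*Vegfb* (ENSMUSG00000024962, chromosome 19, 6982473 to 6987651), a ligand of VEGFR1 that is abundant in heart muscle, had the lowest log2 fold change. It had 59.3, 48.9 and 62.8 CPM in replicates 1, 2 and 3 labelled mutant and 56.7, 75.5 and 89.7 CPM with the wildtype label. Wildtype replicate 1 sat among the mutant libraries, below 2 of them, and the other wildtype libraries sat above all 3. The log2 fold change was −0.38 (SE 0.16, 95% interval −0.73 to −0.02) with an edgeR adjusted p = 0.291. The two-sided exact permutation test gave p = 0.3. Without wildtype replicate 1 it was −0.54 and *Vegfb* was called (edgeR adjusted p = 0.0300), and with the replicate block together with offsets for GC content and length it was −0.46 and called (edgeR adjusted p = 0.00416). Without wildtype replicate 3 it was −0.21, and with the mean of the myocardial markers as a covariate −0.09, while the adjusted p-values of all alternatives spanned 0.00416 to 0.948. The *Vegfb* values followed the order of the myocardial marker means in the wildtype libraries, 0.04, 0.06 and 0.63 above the mean of all libraries in replicates 1, 2 and 3, and in the mutant ones, −0.28, −0.63 and 0.18 on the log2 scale. *Flt1*, a receptor gene of endothelial cells, had the same order in both groups, so this order is not particular to *Vegfb*. The part of the myocardial share in the *Vegfb* difference was not tested beyond that covariate.

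*Vegfc* (ENSMUSG00000031520, chromosome 8, 54077606 to 54187096), the ligand of VEGFR3, and *Pgf* (ENSMUSG00000004791, chromosome 12, 85166635 to 85177790), placental growth factor, overlapped between the groups. *Vegfc* had 28.6, 30.0 and 24.2 CPM in replicates 1, 2 and 3 labelled mutant and 29.7, 26.3 and 22.3 CPM with the wildtype label. Its spread within each group exceeded the difference of the means, and the log2 fold change was 0.08 (95% interval −0.20 to 0.36, edgeR adjusted p = 0.804). *Pgf* had 9.10, 10.005 and 9.50 CPM under the mutant label and 8.08, 9.61 and 8.57 CPM under the wildtype label. On the log2 scale the difference was 0.12 (95% interval −0.17 to 0.41, edgeR adjusted p = 0.686). The upper bounds, 0.36 and 0.41, lay below the 0.50 of *Vegfa* but inside its interval, and no contrast between genes was fitted.

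**Figure D2:**
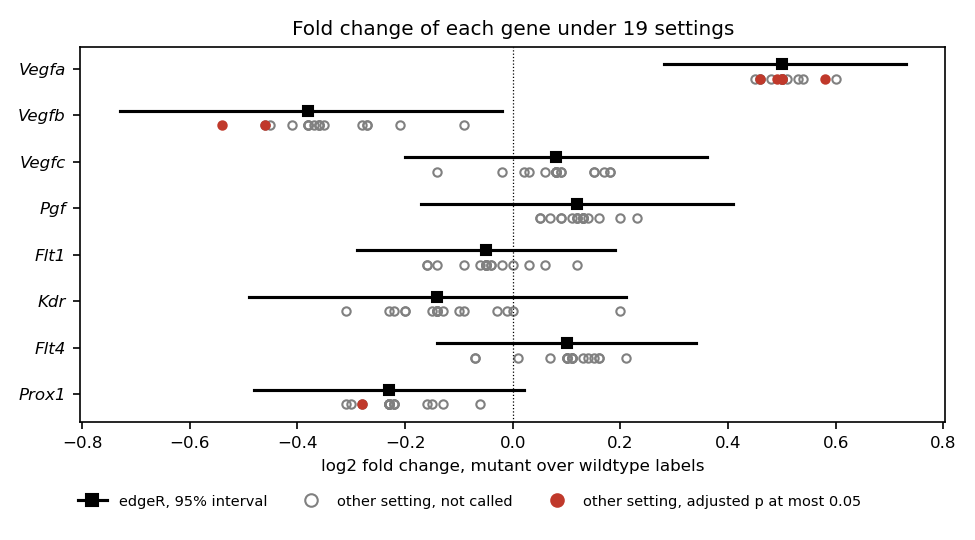
Log2 fold change of mutant over wildtype labels (x axis) for each gene, as the edgeR value with its 95% interval (black square and line) and as the values under 18 other settings (circles, red where the adjusted p was at most 0.05). The circles of *Vegfa* lie between 0.45 and 0.60, and those of *Vegfc*, *Flt1*, *Kdr* and *Flt4* fall on both sides of 0.

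The 3 receptors showed no difference between the labels beyond the spread of the libraries. *Kdr* (ENSMUSG00000062960, chromosome 5, 75932827 to 75978458), which encodes VEGFR2, had 108, 92.8 and 140 CPM in replicates 1, 2 and 3 labelled mutant and 114, 113 and 148 CPM with the wildtype label. Replicate 3 was the highest library of each group, and the groups overlapped across most of their range. The log2 fold change of *Kdr* was −0.14 (SE 0.16, 95% interval −0.49 to 0.21, edgeR adjusted p = 0.714). *Flt1* (ENSMUSG00000029648, chromosome 5, 147561604 to 147726011), which encodes VEGFR1, had 76.6, 69.3 and 87.4 CPM under the mutant label and 75.8, 79.7 and 85.9 CPM under the wildtype label. The highest and the lowest *Flt1* values were both in mutant libraries, and the log2 fold change was −0.05 (95% interval −0.29 to 0.19, edgeR adjusted p = 0.863). The counts are per gene, so the membrane form of VEGFR1 and its soluble decoy form were not separated.

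*Flt4* (ENSMUSG00000020357, chromosome 11, 49609263 to 49652739), which encodes VEGFR3, had 36.6, 38.3 and 39.6 CPM in replicates 1, 2 and 3 labelled mutant and 30.7, 38.5 and 37.5 CPM with the wildtype label. Only wildtype replicate 1 stood below the other 5 libraries. Its log2 fold change was 0.10 (95% interval −0.14 to 0.34, edgeR adjusted p = 0.687). The upper bounds of the 3 receptors, 0.21, 0.19 and 0.34, lay below the 0.50 of *Vegfa*, and the first and second lay below its interval. Whether the receptors differ from *Vegfa* in fold change was not tested, and *Vegfa* itself was not called in this fit. *Kdr* and *Flt1* share chromosome 5 with the targeted *Nos3* and start 51.5 and 123.2 Mb from its end.

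Set against the endothelial markers of the same library, the receptors also overlapped between the labels. The log2 level of *Kdr* minus the mean of the 10 markers was 0.88 ± 0.19 under the mutant and 0.95 ± 0.24 under the wildtype label (SD, n = 3), a difference of −0.07 (two-sided exact permutation test, p = 0.8). For *Flt1* the same quantity was 0.35 ± 0.07 and 0.33 ± 0.21 (SD, n = 3), a difference of 0.02 (two-sided exact permutation test, p = 0.9). For *Flt4* it was −0.66 ± 0.08 and −0.84 ± 0.12 (SD, n = 3), a difference of 0.18 (two-sided exact permutation test, p = 0.2). With 1 library left out the difference lay between 0.12 and 0.24 for *Flt4*, −0.05 and 0.14 for *Flt1*, and −0.20 and 0.03 for *Kdr*.

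*Prox1* (ENSMUSG00000010175, chromosome 1, 190118035 to 190170714) marks lymphatic endothelium and is also expressed in heart muscle, liver and neurons. It had 54.3, 48.0 and 60.3 CPM in replicates 1, 2 and 3 labelled mutant and 64.7, 56.8 and 69.2 CPM with the wildtype label. Wildtype replicate 2 lay below mutant replicate 3, and otherwise the wildtype libraries were the higher ones. Between libraries that share a number in the titles, *Prox1* was lower under the mutant label in all 3 pairs, with differences of −0.25, −0.24 and −0.20 on the log2 scale. Paired by the descriptions, the differences were −0.25, −0.52 and 0.09. The log2 fold change was −0.23 (SE 0.11, 95% interval −0.48 to 0.02) with an edgeR adjusted p = 0.348. The two-sided exact permutation test gave p = 0.2. With the replicate block of the titles alone it was −0.23 with an unadjusted p of 0.0354 and an edgeR adjusted p = 0.221, and it was not called. With the replicate block and the GC and length offsets together it was −0.28 and called (edgeR adjusted p = 0.0356, the alternatives spanning 0.0356 to 0.960), and with the myocardial covariate −0.06. Liver markers (*Alb*, *Afp*, *Apoa1*, *Apoa2*, *Ttr* and *Fgb*) summed to 96.8 and 27.4 CPM in wildtype replicates 2 and 3 and to between 1.59 and 5.76 CPM in the other 4 libraries, while *Prox1* was at −0.30 without wildtype replicate 2 and at −0.16 without wildtype replicate 3. *Prox1os*, an antisense gene that shares 133 exonic bases with *Prox1*, had between 24 and 62 counts per library, against 1798 or more for *Prox1*.

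Relative to 10 myocardial markers, *Vegfa* stood further apart between the labels, and the means of *Vegfb* and *Prox1* were no longer lower under the mutant label. The log2 level of *Vegfa* minus the marker mean was −2.73 ± 0.33 under the mutant and −3.72 ± 0.39 under the wildtype label (SD, n = 3), a difference of 0.99 (exact permutation test, two-sided, p = 0.1, the smallest possible), and the groups were separate. The marker mean itself was lower under the mutant label by 0.49, and it is subtracted in the 0.99. For *Vegfb* the difference was 0.13 (two-sided exact permutation test, p = 0.6) and for *Prox1* 0.26 (two-sided exact permutation test, p = 0.3), both with overlapping groups. On this scale the sign of both genes was opposite to that of their log2 fold changes, −0.38 and −0.23. With the same marker mean as a covariate in edgeR, *Vegfa* was at 0.53 and not called (edgeR adjusted p = 0.353). *Vegfb* and *Prox1* stayed lower under the mutant label in that fit, at −0.09 and −0.06.

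Per kilobase of merged exons, the scale on which different genes can be compared, the ligands *Vegfb* and *Vegfa* were the most abundant members. *Vegfb* had a mean of 40.8 CPM per kb over the 6 libraries (30.5 to 55.9) and *Vegfa* 35.5 (27.4 to 44.1), and their ranges overlapped. *Kdr* came next with 13.2 (10.3 to 16.4) and overlapped with *Vegfc* at 11.0 (9.10 to 12.3). *Prox1* had 7.02 (5.72 to 8.25), *Flt1* 5.86 (5.13 to 6.47), *Flt4* 4.48 (3.73 to 4.81) and *Pgf* 3.15 (2.78 to 3.45) CPM per kb. In this order *Prox1* and *Flt1* overlapped, whereas *Vegfa* and *Kdr*, *Vegfc* and *Prox1*, *Flt1* and *Flt4*, and *Flt4* and *Pgf* did not. With the length of the longest annotated transcript instead, *Flt1* ranked 4 of 8, above *Vegfc* and *Prox1*, so its place depends on the length used. Under the wildtype label *Vegfb* was above *Vegfa*, 46.1 ± 10.3 against 29.4 ± 2.60 CPM per kb, and under the mutant label *Vegfa* was above *Vegfb*, 41.6 ± 2.34 against 35.5 ± 4.49 (SD, n = 3 each).

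**Figure D3:**
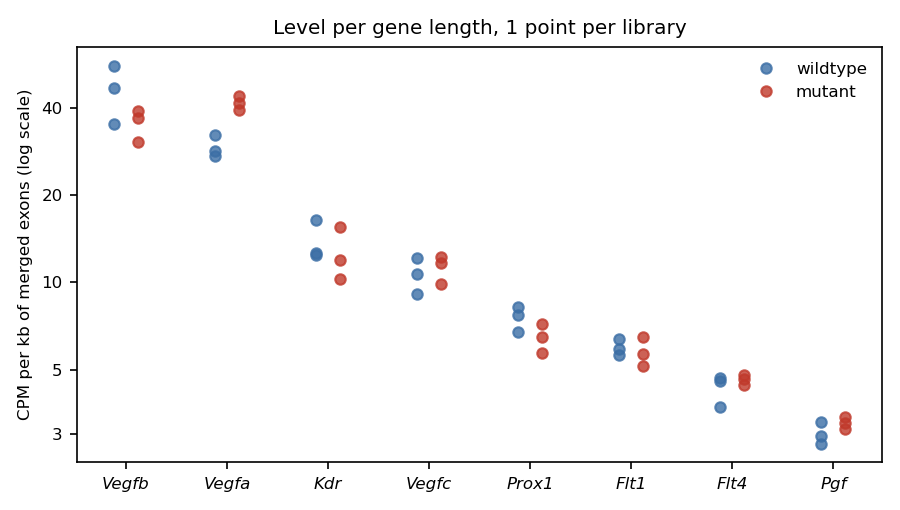
Level of each gene as CPM per kilobase of merged exons (y axis, log scale), 1 point per library, wildtype label in blue and mutant label in red, ordered by the mean of all 6. *Vegfb* and *Vegfa* lie between 27.4 and 55.9, above the highest *Kdr* value of 16.4.

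Within a library the ratio of *Vegfa* to *Vegfb* CPM was higher under the mutant label. Its log2 value was 1.58, 1.78 and 1.58 in replicates 1, 2 and 3 labelled mutant and 1.28, 0.63 and 0.44 with the wildtype label. All 3 mutant values were higher, by 0.86 on average, and the wildtype libraries were spread more widely (SD 0.44 against 0.11). The two-sided exact permutation test gave p = 0.1, the smallest possible, and this pair was singled out of 28 after its values were seen. *Vegfa* to *Kdr*, ligand to main receptor, had log2 ratios of 0.72, 0.86 and 0.43 under the mutant label and 0.28, 0.06 and −0.28 under the wildtype label, also without overlap (two-sided exact permutation test, p = 0.1). Such separation was found in 8 of the 28 pairs and in 5 of the 7 that include *Vegfa*, whose own groups are separate. The 28 pairs reuse the same 8 genes and are not independent, and the share among other gene pairs was not computed. At the other end, the ratio of *Flt1* to *Kdr* varied with an SD of 0.13 over the 6 libraries, and that of *Pgf* to *Flt4* with an SD of 0.08.

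The other genes of the VEGF pathway were looked up as 6 lists with 70 genes, all of them tested and 68 averaging 1 CPM or more. Of the 70, 0 were called by edgeR, 15 had an unadjusted p under 0.05 (11 higher and 4 lower under the mutant label), and 13 had groups that did not overlap, to be read beside the 16.1% and 19.6% of all genes. The lists were drawn up with earlier results of these data known. Their median log2 fold change was −0.01. DESeq2 called 6 of them, *Egln3*, *Nfatc1*, *Pxn*, *Egr3* and *Nr4a1* as higher and *Hspb1* as lower, which is 8.57% of the 70 beside 4.21% of all genes. With the replicate block edgeR called 7, *Egln3* (0.72), *Egr3* (1.06), *Angpt2* (0.65), *Ptprb* (0.56), *Nfatc1* (0.41), *Angpt1* (−0.38) and *Hspb1* (−0.52), or 10% beside 5.6% of all genes. Without wildtype replicate 1 it called 11, or 15.7% beside 9.45% of all genes, and with each of the other 5 libraries left out in turn it called 0. These shares are not like for like in level. Of the 70 genes 68 averaged 1 CPM or more, and of the 28157 genes tested 16655 did. Whether the lists exceed genes of like level was not tested.

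**Figure D4:**
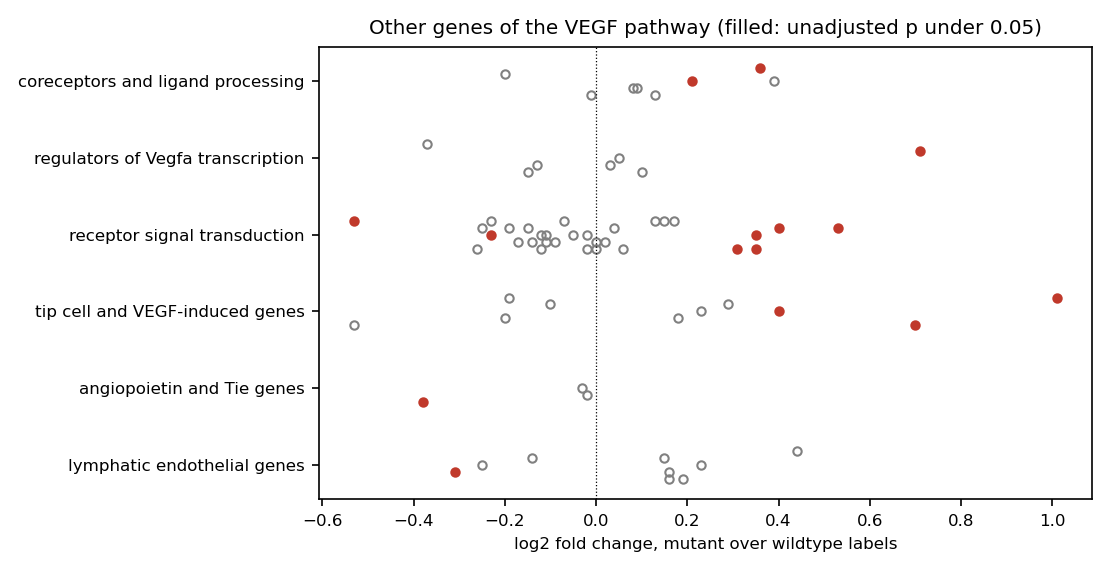
Log2 fold change of mutant over wildtype labels (x axis) for the 68 other pathway genes that averaged 1 CPM or more, 1 circle per gene in 6 lists (y axis), filled red where the unadjusted p from edgeR was under 0.05. *Egr3* at 1.01 and *Egln3* at 0.71 lie farthest to the right, and *Hspb1* and *Esm1*, both at −0.53, farthest to the left.

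Among 7 regulators of *Vegfa* transcription, 4 had higher and 3 lower means under the mutant label, with a median log2 fold change of 0.03. *Egln3*, a prolyl hydroxylase that marks HIF proteins for decay and is itself induced by HIF, had the smallest adjusted p of the 70 genes. It had 51.1, 47.8 and 58.6 CPM in replicates 1, 2 and 3 labelled mutant and 38.3, 30.5 and 27.4 CPM with the wildtype label. The groups did not overlap, and the log2 fold change was 0.71 (SE 0.13, edgeR adjusted p = 0.134). *Arnt*, the shared HIF partner, was at 0.10, *Hif1a* at −0.15 and *Epas1*, the gene of HIF2α, at −0.37 (edgeR adjusted p = 0.656, 0.476 and 0.319). The genes of the HIF subunits thus gave values on both sides of 0, without a call.

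Of 8 coreceptors and ligand processing genes, 6 had higher and 2 lower means, with a median of 0.11. *Nrp2*, a neuropilin that binds VEGF-C beside VEGFR3, had 53.8, 67.9 and 61.2 CPM under the mutant label and 52.8, 45.8 and 44.1 CPM under the wildtype label. The lowest mutant value was just above the highest wildtype value, and the log2 fold change was 0.36 (edgeR adjusted p = 0.217). *Vegfd*, the remaining VEGF ligand, was at 0.39, *Nrp1*, the coreceptor of VEGFR2, at −0.20, and *Adamts3*, the protease that matures VEGF-C, at −0.01 (edgeR adjusted p = 0.347, 0.453 and 0.984).

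Of 32 signal transduction genes downstream of the receptors, 12 had higher and 20 lower means, with a median of −0.06. *Nfatc1*, a calcineurin target needed in valve endocardium, had 72.9, 70.0 and 66.5 CPM under the mutant label and 53.4, 57.1 and 47.8 CPM under the wildtype label, without overlap. Its log2 fold change was 0.40 (edgeR adjusted p = 0.181). *Ptprb*, the endothelial phosphatase that acts on VEGFR2 and TIE2, was at 0.53, with 142, 153 and 136 CPM against 120, 109 and 70.5 CPM (edgeR adjusted p = 0.216). At the low end, *Hspb1*, the small heat shock protein phosphorylated downstream of p38, was at −0.53 and *Prkca*, a protein kinase C, at −0.26 (edgeR adjusted p = 0.197 and 0.330).

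Of 10 tip cell and VEGF-induced genes, 6 had higher and 4 lower means, with a median of 0.20. *Egr3*, an early response transcription factor, had 3.17, 3.34 and 2.71 CPM under the mutant label and 2.18, 1.28 and 1.08 CPM under the wildtype label, without overlap. Its log2 fold change was 1.01 (SE 0.28, edgeR adjusted p = 0.194). *Angpt2*, which destabilizes vessels by antagonizing TIE2, was at 0.70 and overlapped between the labels, with 14.1 CPM in mutant replicate 2 and 4.16 to 8.05 CPM in the other 5 libraries. *Apln*, a tip cell peptide, was at −0.20 and *Esm1*, a secreted tip cell proteoglycan, at −0.53 (edgeR adjusted p = 0.460 and 0.391).

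All 4 angiopoietin and Tie genes had lower means, by little for the receptors *Tek* (−0.02) and *Tie1* (−0.03). *Angpt4* averaged only 0.172 CPM, and its log2 fold change of −0.13 was far smaller than its SE of 0.87. *Angpt1*, the ligand that activates TIE2, was at −0.38, with 27.8, 25.6 and 36.0 CPM in replicates 1, 2 and 3 labelled mutant and 34.8, 34.4 and 47.8 CPM with the wildtype label (edgeR adjusted p = 0.284). Replicate 3 was the highest of each group, as it was for *Kdr*. Of 9 lymphatic endothelial genes, 6 had higher and 3 lower means, with a median of 0.16. *Mmrn1* was at 0.44 and *Itga9*, an integrin of lymphatic valves, at 0.23, while *Reln* was at −0.25 (edgeR adjusted p = 0.488, 0.381 and 0.547). *Pdpn*, podoplanin, was lower without overlap, 11.97, 12.8 and 13.8 CPM against 15.4, 16.4 and 16.02 CPM, with a log2 fold change of −0.31 (edgeR adjusted p = 0.240).

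The genes whose profile over the 6 libraries came nearest to that of a member were found by the root mean square difference of centred log2 values, among 16641 genes that averaged 1 CPM or more. For *Vegfa* they were *Nfkbid*, *Klhl7* and *Stat3*, with differences of 0.0450, 0.0504 and 0.0518 log2 units beside the SD of 0.29 of *Vegfa* itself. For *Vegfb* they were *Ndufa11*, *Eno3* and *Macrod1* (0.0328, 0.0367 and 0.0412 beside an SD of 0.31), and for *Prox1* *Gfm2*, *Camk2d* and *Atp1b1* (0.0136, 0.0221 and 0.0265 beside 0.19). For *Kdr* they were *Phf24*, *Ppp1r3b* and *Rcan1* (0.0387 to 0.0520 beside 0.25). The genes nearest to *Pgf* (*Gm11971*, *Cmtm3* and *Dusp23*), *Flt1* (*Prmt3*, *Gm13313* and *Bid*) and *Flt4* (*Ttc9*, *St7l* and *Ccm2l*) differed by 0.0276 to 0.0360, for members whose own SD was between 0.11 and 0.13. Of the genes named here, *Rcan1* is also in the pathway lists. These likenesses describe 6 libraries and were not tested.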

How the data were processed

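Bulk RNA-Seq of E13.5 mouse OFTs was analysed in 6 libraries, 3 per label. Per the labels and the study's methods, the authors prepared stranded, rRNA-depleted, paired-end libraries, aligned the reads with TopHat2 2.1.0 to mm10 and counted reads on exons per gene, and the deposited values are raw counts. The annotation release and strand setting are not given in the sources used here. Wildtype replicates 2 and 3 are numbered by the titles of the samples, and the descriptions exchange them.

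Genes with more than 5 reads over all libraries were normalized by TMM and tested with the quasi-likelihood test of edgeR 4.0.16 (R 4.3.3) with Benjamini-Hochberg adjustment over all genes. Calls are adjusted p-values of 0.05 or less. Alternatives used DESeq2 1.42.0 and limma 3.58.1. Exact permutation tests used log2 of CPM plus 0.5. Positions and lengths came from GENCODE M21, which lacks 54 identifiers, and upstream sequences from RefSeq (GRCm38.p6), which held all 8 genes.

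Same-numbered libraries deviated together from their group means (correlations over 16655 genes of 0.101, 0.152 and 0.458), so the block on the replicate number of the titles is given where it changed a call. This holds for the numbering of the titles only. The pairs that the descriptions exchange had −0.487 and −0.118, and wildtype 1 with mutant 2, which share no number, had 0.318. No source says what that number stands for. Scripts were tested on simulated data. The members, gene lists and tests were chosen with earlier results of these data known. In each list the genes named are the 2 highest and 2 lowest with at least 1 CPM. Others named (*Nr4a1*, *Pxn* and *Angpt4*) were chosen after their values were seen. The profiles nearest to *Vegfc* are not reported here.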

Additional observations from a re-analysis of the deposited data

How the results depend on the processing

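The number of members called was 0 in edgeR's fit and 1 with DESeq2's Wald test, 1 with the replicate block, 3 with the block and the GC and length offsets together, and 1 with the endothelial marker mean as a covariate. With 1 library left out it was between 0 and 2, the 2 being without wildtype replicate 1. The block on the replicate numbers of the descriptions, added after the data were seen, called 0. *Vegfa* kept its direction under each alternative and was called in those that called a member, at 0.50 with DESeq2 and with the block, 0.46 with the block and offsets, 0.49 with the endothelial covariate and 0.45 to 0.58 with 1 library left out. *Vegfb* (−0.46) and *Prox1* (−0.28) were called with the block and offsets, and with 1 library left out they lay between −0.54 and −0.21 and between −0.31 and −0.15. *Vegfb* was also called without wildtype replicate 1 (−0.54, edgeR adjusted p = 0.0300). Directions turned for 4 genes that no alternative called. *Vegfc* was −0.14 with the myocardial covariate and −0.02 to 0.18 with 1 library left out. *Flt1* was 0.06 with scaling to library size alone, which puts the median of all genes at 0.114, 0.12 with the myocardial covariate and −0.14 to 0.03 with 1 library left out. *Kdr* was 0.20 with the myocardial covariate and −0.31 to 0.00 with 1 library left out, and *Flt4* was −0.07 with the offsets, with and without the block. Relative to endothelial markers, *Flt1* ranged from −0.05 to 0.14 and *Kdr* from −0.20 to 0.03 with 1 library left out. The pathway lists held 6 calls with DESeq2, 7 with the block, 12 with the block and offsets, 7 with the endothelial covariate, 1 with the block by descriptions (*Egln3*) and 0 to 11 with 1 library left out, beside 0 in edgeR's fit. Of all genes the first 5 of these settings called 4.21%, 5.6%, 8.02%, 3.82% and 0.295%, shares over genes not matched in level to the lists. The replicate block alone changed the call of *Vegfa* only, and the offsets alone called 0 members. With all 6 libraries, *Vegfb* and *Prox1* were called only with the block and the offsets together. Per length, 26 of 28 pairs of genes kept their order of level with the longest transcript, and 21 by CPM without length. The cause of these differences was not tested.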
